A study of Mus musculus with 2 samples.

Results

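Sorting nexins and SNARE proteins are described here in mouse RAW264.7 cells, an established macrophage-like line, after knockdown of Lamtor1. The genes were chosen by their name on the array: Snx, Stx, Vamp or Snap followed directly by a digit, or a name that starts with Vti1. This took 85 of the 39429 probes that are not controls, on 103 spots, for 60 genes, of which 31 are sorting nexins. One of the other 29, Snap91, carries the Snap name but encodes the endocytic clathrin adaptor AP180, so 28 are SNARE genes.

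The study held 2 samples, Lamtor1 knockdown cells and control cells, with 1 single-colour Agilent array each. Lamtor1 encodes the lysosomal anchor of Ragulator, the complex that recruits mTORC1 to the lysosome, and the stated purpose was to read the transcriptional activity of TFEB in cells without Ragulator. The knockdown cells were made with a lentiviral mixture of 2 shRNA vectors against Lamtor1, followed by limiting dilution. The labels carry the same treatment text for the control cells, so the vector the controls carried is not known, nor is it stated whether either sample grew out as 1 clone.

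A sorting nexin carries a PX domain that binds phosphoinositide lipids of endosomes, and many also carry a BAR domain that senses or bends membrane into tubules, through which cargo leaves the endosome for the plasma membrane or the trans-Golgi network. SNAREs are the coiled-coil proteins that zip together across a pair of membranes and drive their fusion: a VAMP usually sits on the vesicle, while syntaxins, Vti1 and SNAP25-family proteins sit on the target. In macrophages these families serve phagosome maturation, lysosome fusion, recycling of receptors and secretion of cytokines.

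Levels are given as log2 of the processed signal minus the 75th percentile of the same array, so that 0 is the signal that 75% of spots do not exceed. A level says nothing about how one probe compares with another, and each difference is knockdown minus control of the same probe. Both arrays had a like share of spots well above background, 52.9% for the knockdown and 53.3% for the control, and no spot was saturated. Each array read RNA from a whole culture, so fewer cells with a transcript and less of it per cell cannot be told apart. Lamtor1 itself had a level of -0.43 in knockdown cells and 4.10 in control cells, 23.1-fold lower. All 6 macrophage markers were above background on both arrays, but their differences ranged from -1.56 for Adgre1 to 1.22 for Cd68, with -0.84 for Itgam, -0.82 for Csf1r, -0.45 for Lyz2 and 0.26 for Ptprc. The Itgam probe holds a CA dinucleotide repeat, and probes of this kind, described below, were all above background and all lower in knockdown cells. The part of the repeat in the Itgam reading was not tested. None of the B cell and epithelial markers was above background, and of the T cell markers only Cd3e and Cd4 were. Of 4 fibroblast markers, 1 was above it in knockdown cells and 2 in control cells, with Pdgfrb above it in control cells only. The part of these shifts in the sorting nexin and SNARE values was not tested. A single array stands for each group, so nothing was tested and no difference has a replicate check. Spots of 1 probe repeated on the arrays differed with a median SD of 0.0440 in log2 difference, which covers spotting and scanning but neither cultures nor labelling.

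Of the 60 genes, 57 were measured, each with its brightest probe well above background on both arrays. The 3 genes below background on both arrays were Snap91, Snx31, which is known mainly from the urothelium, and Stx19, a syntaxin of epithelia. Most genes were somewhat higher in knockdown cells, and few differed by 2-fold. At 2-fold or more, 6 of the 57 genes were higher in knockdown cells (10.5%, against 9% of the 13773 genes measured on the arrays) and 3 were lower (5.26%, against 8.35%). Over the 12565 genes above background on both arrays, as all 57 were, the shares were 6.31% higher and 5.52% lower. The share lower was near that of this closer set, and no test stands behind the 6 genes higher. At 1.5-fold or more, 17 were higher (29.8%, against 15.4%) and 5 were lower (8.77%, against 16.1%), and 42 of the 57 had a difference above 0 (73.7%, against 45.7%). Over the genes above background on both arrays these shares were 12.8% higher, 13.3% lower and 45.4% above 0. Snap25, lower at 2-fold, and Snap23, lower at 1.5-fold, were each read by a probe with a CA repeat, described below. Without these probes, 2 of 56 genes were lower at 2-fold. The median log2 difference was 0.25 over the 57 genes and -0.05 over all genes, with quartiles of -0.11 and 0.62 over the 57 genes and of -0.37 and 0.31 over all genes.

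**Figure D1:**
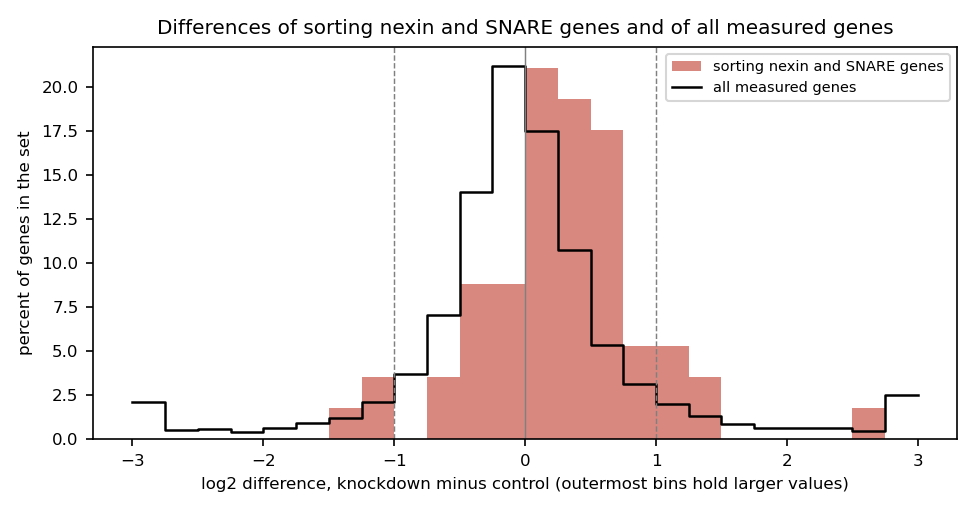
Share of genes (vertical axis, percent of the set) by log2 difference, knockdown minus control (horizontal axis, bins of equal width, the outermost holding all larger values), for the 57 sorting nexin and SNARE genes (filled bars) and all 13773 measured genes (line). Dashed lines mark a 2-fold difference. The filled bars lie mostly to the right of 0, with 42 of 57 genes above it, and few lie beyond the dashed lines.

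The sorting nexins had 23 of 30 measured genes above 0 (76.7%) with a median of 0.38. Among them 4 were higher (13.3%) and 1 was lower (3.33%) at 2-fold. The SNAREs had 19 of 27 above 0 (70.4%) with a median of 0.23. At 2-fold 2 of them were higher and 2 were lower (7.41% each). Over all measured genes 45.7% were above 0, 9% were higher and 8.35% were lower at 2-fold. Over those above background on both arrays the shares were 45.4%, 6.31% and 5.52%. These shares also stand beside the counts of the smaller groups below. Within the SNAREs the syntaxins had 11 of 14 above 0 (median 0.21), the VAMPs 4 of 7 (0.23), the SNAP25 family 2 of 4 (-0.11) and both Vti1 genes were above 0 (0.61). Both SNAP25-family genes below 0, Snap23 and Snap25, were read by probes with a CA repeat, described below. The other Snap23 probe, without the repeat, gave 0.39.

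**Figure D2:**
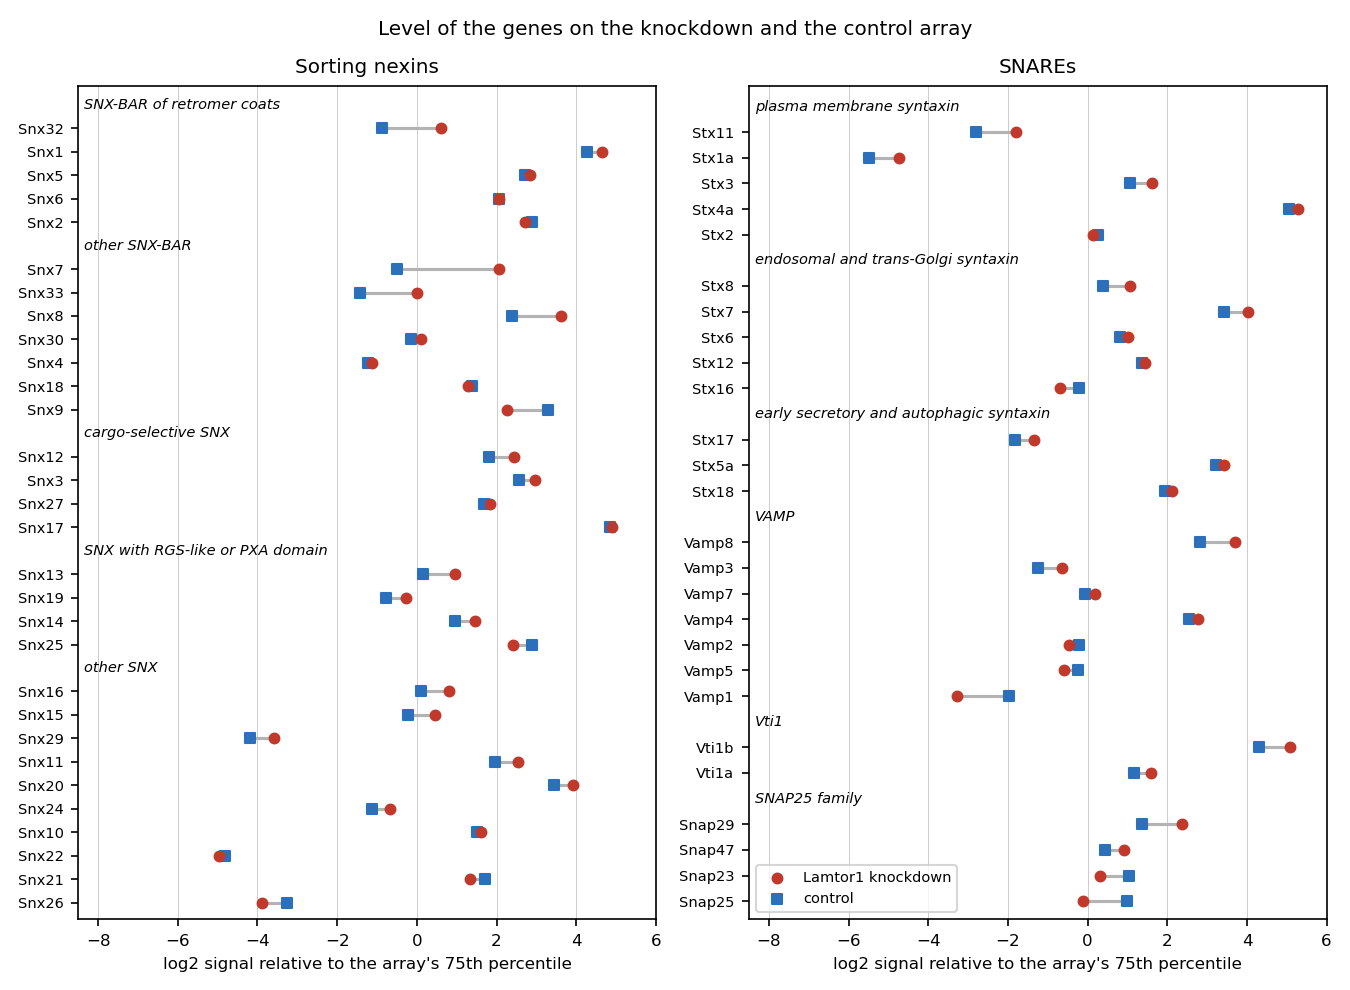
Level of the measured genes, 1 left out, by their brightest probe (horizontal axis, log2 signal relative to the 75th percentile of the array) in Lamtor1 knockdown cells (circles) and control cells (squares), with genes on the vertical axis in groups by role, sorting nexins on the left and SNAREs on the right. The gap between the marks of a gene is its log2 difference, with Snx7 showing the widest at 2.56, and 1 array stands behind each mark.

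The largest difference of all 57 genes belonged to Snx7. This SNX-BAR protein pairs with SNX4 and takes part in endosomal recycling and autophagy. Its brightest probe read 2.07 in knockdown cells and -0.49 in control cells, a log2 difference of 2.56 (5.89-fold higher). The second Snx7 probe, at chr3:117484797-117484856, read -0.05 in knockdown cells and -2.34 in control cells, a difference of 2.29. The probes thus gave 5.89-fold and 4.88-fold, and Snx7 ranked 394 from the top among the 13773 genes. The brightest probe lies on the minus strand at chr3:117503765-117503824 (mm9) and is shown because it carries the largest difference:
Snx7 probe: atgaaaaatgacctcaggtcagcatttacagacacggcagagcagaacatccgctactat

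Other SNX-BAR genes stood at both ends of the families. Snx33, an SH3-domain sorting nexin that binds dynamin and acts in endocytosis, had a level of 0.01 in knockdown cells and -1.44 in control cells, 2.72-fold higher (single probe, chr9:56765240-56765299). For Snx8, which acts in traffic between endosome and trans-Golgi network, the levels were 3.62 in knockdown cells and 2.38 in control cells, 2.36-fold higher (single probe, chr5:140816372-140816431). In the opposite direction stood Snx9, the paralogue of Snx33 that links dynamin, clathrin coats and actin assembly. Its brightest probe (chr17:5930623-5930682) read 2.27 in knockdown cells and 3.29 in control cells, 2.03-fold lower, and its second probe read 1.27 in knockdown cells and 2.28 in control cells, 2.01-fold lower. With scaling to the array median the Snx9 difference was -0.93, short of 2-fold. The second probe read the same RNA on the same arrays. It lies on the plus strand at chr17:5926101-5926160 and is printed as the other reading of a gene that differed against the lean of its family:
Snx9 probe: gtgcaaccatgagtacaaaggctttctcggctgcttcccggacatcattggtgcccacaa

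The third member of the SH3 group, Snx18, which also acts in autophagosome formation, read 1.28 in knockdown cells and 1.39 in control cells (-0.11). Thus the 3 SH3 sorting nexins took 3 different values, 1.44 for Snx33, -0.11 for Snx18 and -1.02 for Snx9. Snx4, whose product pairs with SNX7 or with SNX30, differed by 0.12, and Snx30 by 0.25. The SNX-BAR genes outside the retromer coats thus held 3 of the 4 sorting nexins higher at 2-fold and the only lower one, with a median of 0.25 over 7 genes.

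SNX-BAR proteins of the retromer coats, which with retromer or alone pull sorted cargo into tubules bound for the trans-Golgi network, showed small differences except for 1 gene. Snx32, a close relative of Snx6 that is known mainly from brain, had a level of 0.61 in knockdown cells and -0.88 in control cells, 2.81-fold higher (single probe, chr19:5495340-5495399). The 4 widely expressed members lay within 0.37 of 0 in log2. Snx1 read 4.64 in knockdown cells and 4.27 in control cells (0.37). Snx5 differed by 0.14, Snx6 by less than 0.01 by its brightest probe and by 0.14 by its second, and Snx2 by -0.17.

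Cargo-selective sorting nexins, which recognise sorting signals in receptors, were all on the higher side, with 4 of 4 measured genes above 0 and a median of 0.28. Snx12, the paralogue of the retromer adaptor Snx3, was the furthest at 2.44 in knockdown cells and 1.82 in control cells, 1.54-fold higher, and its second probe gave 0.81 in log2. Snx3 differed by 0.38. Snx27, whose PDZ domain carries receptors with retromer to the plasma membrane, differed by 0.17. Snx17, which recycles integrins through the retriever complex, read 4.91 in knockdown cells and 4.84 in control cells (0.07).

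Of the 4 sorting nexins with RGS-like or PXA domains, several of which tether endoplasmic reticulum to endosomes, lysosomes or lipid droplets, 3 were above 0. Snx13 had a level of 0.96 in knockdown cells and 0.15 in control cells, 1.75-fold higher. Snx14 and Snx19 each differed by 0.49. Snx25 stood apart with a difference of -0.50 by its brightest probe and -0.70 by its second.

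The remaining 10 sorting nexins, most of them a PX domain with few other parts, had a median of 0.46, and none reached 2-fold. Snx16, which acts in traffic of the EGF receptor through late endosomes, read 0.81 in knockdown cells and 0.11 in control cells, 1.63-fold higher, and its 3 probes lay between 0.67 and 0.81. Snx15, an endosomal protein, had a level of 0.46 in knockdown cells and -0.21 in control cells, 1.59-fold higher. Snx29 was dim at -3.57 in knockdown cells and -4.20 in control cells, a difference of 0.62 that was 0.31 under normexp, a model-based background correction. The one gene of the group at 1.5-fold lower was Snx26, a GTPase-activating protein now named Arhgap33, which read -3.88 in knockdown cells and -3.25 in control cells (-0.62, or -0.41 under normexp). Snx20, a leukocyte protein that binds the selectin ligand PSGL-1, read 3.91 in knockdown cells and 3.44 in control cells (0.47). The other differences were 0.58 for Snx11, 0.44 for Snx24, 0.09 for Snx10, -0.16 for Snx22 and -0.38 for Snx21.

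Among SNAREs of late endosomes and lysosomes, 4 genes were between 1.5-fold and 2-fold higher, while Vamp7, the VAMP of lysosomal exocytosis, differed by 0.25. Syntaxins 7 and 8, Vti1b and Vamp8 form the textbook complex for fusion of late endosomes, and they are set together here after their values were seen, with no test. At 1.5-fold or more, 15.4% of all measured genes were higher. Stx7 had a level of 4.03 in knockdown cells and 3.42 in control cells, 1.53-fold higher. Stx8 read 1.05 in knockdown cells and 0.40 in control cells, 1.58-fold higher, by its 1 probe above background. Vti1b read 5.09 in knockdown cells and 4.30 in control cells, 1.73-fold higher. All 4 genes of the complex were thus on the same side, with Vamp8 the furthest at 3.69 in knockdown cells and 2.81 in control cells, 1.84-fold higher. Its probe lies on the minus strand at chr6:72335520-72335579 and is shown as the reading of the VAMP with the largest higher value:
Vamp8 probe: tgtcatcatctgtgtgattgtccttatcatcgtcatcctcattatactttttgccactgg

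Autophagosomes fuse with lysosomes through Stx17 and Snap29 together with Vamp8. Snap29 had a level of 2.37 in knockdown cells and 1.36 in control cells, 2.02-fold higher (chr16:17430644-17430703), and its second probe gave 1.77-fold. It was under 2-fold with normexp (0.99 in log2), quantile normalization (0.99), the 75th percentile over spots above background on both arrays (0.97) and as the median of its probes (0.92). Stx17 was dim and its probes did not point 1 way. The brightest of them read -1.35 in knockdown cells and -1.82 in control cells (0.47), and the other 2 gave 0.15 and -0.14, so that the median over its probes was 0.15.

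The other endosomal and trans-Golgi SNAREs ran from 0.60 for Vamp3 to -0.48 for Stx16. Stx6, of the trans-Golgi network, read 1.02 in knockdown cells and 0.82 in control cells (0.20). Stx12, of recycling endosomes, differed by 0.06, and Stx16, which returns endosomal vesicles to the trans-Golgi network, by -0.48. Vti1a, the trans-Golgi relative of Vti1b, differed by 0.42. Vamp4, of the same compartment, read 2.77 in knockdown cells and 2.54 in control cells (0.23), while its second probe gave -0.02. Vamp3, of recycling endosomes, had a level of -0.65 in knockdown cells and -1.24 in control cells, 1.51-fold higher. The early secretory syntaxins Stx5a, of the Golgi, and Stx18, of the endoplasmic reticulum, differed by 0.19 and 0.18, with Stx5a at 3.41 in knockdown cells and 3.22 in control cells.

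Plasma membrane syntaxins had 4 of 6 measured genes above 0 and a median of 0.38. Stx11, a syntaxin of immune cells needed for cytotoxic granule release, was the only one at 2-fold. It read -1.81 in knockdown cells and -2.81 in control cells, 2.01-fold higher (single probe, chr10:12660488-12660547), and its log2 difference was 0.79 under normexp, 0.96 with the 75th percentile over spots above background on both arrays and 0.997 from the deposited value table. Stx4a, a partner of Snap23 in secretion, read 5.27 in knockdown cells and 5.06 in control cells (0.22). The neuronal syntaxin Stx1a was dim at -4.73 in knockdown cells and -5.48 in control cells, a difference of 0.75 that was 0.15 under normexp. Stx2 differed by -0.11.

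Stx3, a syntaxin of apical and granule membranes, has a probe that sits on 10 spots per array. Over these spots its lowest, median and highest levels were -1.71, -1.60 and -1.46 in knockdown cells, and -2.44, -2.20 and -1.72 in control cells. The ranges did not overlap, though the highest control spot came close to the lowest knockdown spot. The paired difference had a lowest value of 0.14, a median of 0.60 and a highest value of 0.73 (SD 0.155 over 10 spots). A separate Stx3 probe on 1 spot gave 0.55. Snx10, whose product is needed for vacuole and osteoclast function, also sits on 10 spots, with levels of 1.54 to 1.65 (median 1.60) in knockdown cells and 1.40 to 1.57 (median 1.52) in control cells, ranges that overlapped. Its paired difference lay between 0.06 and 0.13 with an SD of 0.0219, and these spots, too, share 1 RNA preparation per group. A separate Snx10 probe on 1 spot gave 0.007. The Stx3 probe lies on the minus strand and its placement spans chr19:11857591-11859903, over 2313 bases, which is more than its own 60:
Stx3 probe: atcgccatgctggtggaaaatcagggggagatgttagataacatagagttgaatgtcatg

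Of the VAMPs, Vamp1 was the only one at 2-fold, and it was lower. This synaptic vesicle VAMP was dim at -3.28 in knockdown cells and -1.98 in control cells, 2.47-fold lower (single probe, chr6:125171818-125171877). The log2 difference of Vamp1 was -1.30, and -1.03 under normexp. Vamp2, its closest relative, differed by -0.26, with -0.48 in knockdown cells and -0.21 in control cells. Vamp5, known from muscle, differed by -0.37. Vamp5 and Vamp8 are neighbours on chromosome 6, their probes 17.4 kb apart, and lay on opposite sides of 0. The sorting nexin genes Snx1 and Snx22, with probes 22.5 kb apart on chromosome 9, also did so, at 0.37 and -0.16. Snx22 was dim at -4.97 in knockdown cells and -4.82 in control cells, and its difference was -0.05 under normexp.

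In the SNAP25 family, 2 values rested on probes that hold a dinucleotide repeat. Snap25, the plasma membrane SNARE of neuronal exocytosis, has 1 probe, which read -0.11 in knockdown cells and 0.99 in control cells, 2.14-fold lower. Snap23, its counterpart outside neurons that serves secretion and phagocytosis in macrophages, has 2 probes. The brighter one read 0.32 in knockdown cells and 1.03 in control cells (-0.71), and the other read -0.57 in knockdown cells and -0.96 in control cells (0.39). The probes of Snap23 thus pointed in opposite directions, 1.10 apart, the widest gap among all genes with several probes. Of the neuron markers, Snap25 was above background on both arrays while Syt1, Tubb3 and Rbfox3 were not on either.

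The brighter Snap23 probe (plus strand, chr2:120425750-120425809) holds an uninterrupted CA repeat of 23 bases and the Snap25 probe (plus strand, chr2:136607709-136607768) one of 20 bases. The longest such run in any other sorting nexin or SNARE probe was 7 bases. The stretches around the repeats are shown with the repeat in capitals, bases 20 to 49 of the Snap23 probe and bases 1 to 30 of the Snap25 probe, followed by the whole of the other Snap23 probe, which holds no such repeat and whose placement spans chr2:120411292-120411905 on the plus strand:
Snap23 repeat probe: gatACACACACACACACACACACACAtgaa
Snap25 repeat probe: CACACACACACACACACACAaagtggattt
Snap23 other probe: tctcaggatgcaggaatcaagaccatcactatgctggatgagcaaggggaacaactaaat

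Probes with such repeats behaved alike across the arrays whatever gene they were named for. Besides these 2, the arrays carry 22 probes with a CA run of 20 bases or more, for 17 named genes. All 22 were above background on both arrays (100%, against 49.9% of all probes), and all 22 had a difference below 0, between -1.84 and -0.71 with a median of -1.06. The 52 probes with a GT run of that length, for 44 named genes, were also all above background and all had a difference above 0, between 0.74 and 1.46 with a median of 0.96. All probes above background on both arrays had a median of -0.07 and quartiles of -0.36 and 0.24. The Snap25 value lay within the range of the CA-repeat probes and the Snap23 value of -0.71 next to its upper end. The Snap23 and Snap25 repeat probes shared a run of at least 20 bases with 23 and 21 probes of other genes, the Snx4 probe with 1, and the other 82 of the 85 probes with none. The part of the repeats in the Snap23 and Snap25 values was not tested. Without both probes 56 genes remained, 43 of them above 0, with a median of 0.38 and with 2 genes lower at 2-fold, Snx9 and Vamp1. Itgam, among the macrophage markers, was also read by a CA-repeat probe (1.51 in knockdown cells and 2.35 in control cells).

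**Figure D3:**
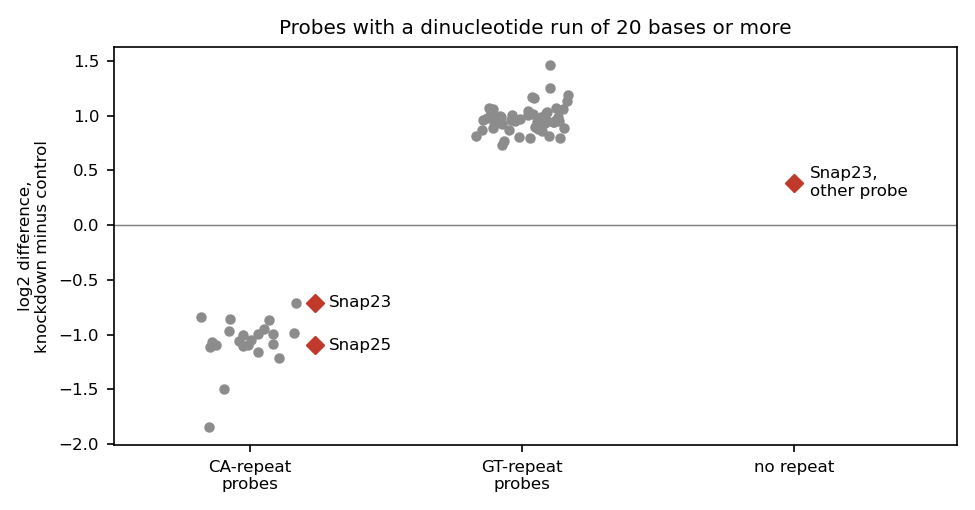
Log2 difference, knockdown minus control (vertical axis), of each probe with a CA or GT dinucleotide run of 20 bases or more, and of the Snap23 probe without a repeat (horizontal axis, kind of probe, with points spread sideways for visibility). Grey points are probes named for other genes and diamonds are Snap23 and Snap25. All CA-repeat points lie below 0 and all GT-repeat points above it, while the other Snap23 probe stands at 0.39.

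Snap47, the last of the SNAP25 family and broadly expressed, differed by 0.50 and by 0.47 with its second probe. Apart from Snap23, probes of 1 gene mostly gave the same reading. Of the 20 genes with several probes above background, 17 had all of them on 1 side of 0, and Snap23, Stx17 and Vamp4 did not. The gap between the lowest and highest probe of a gene had a median of 0.14 and was under 0.3 in 18 of the 20 genes, Snap23 and Stx17 being the exceptions.

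**Figure D4:**
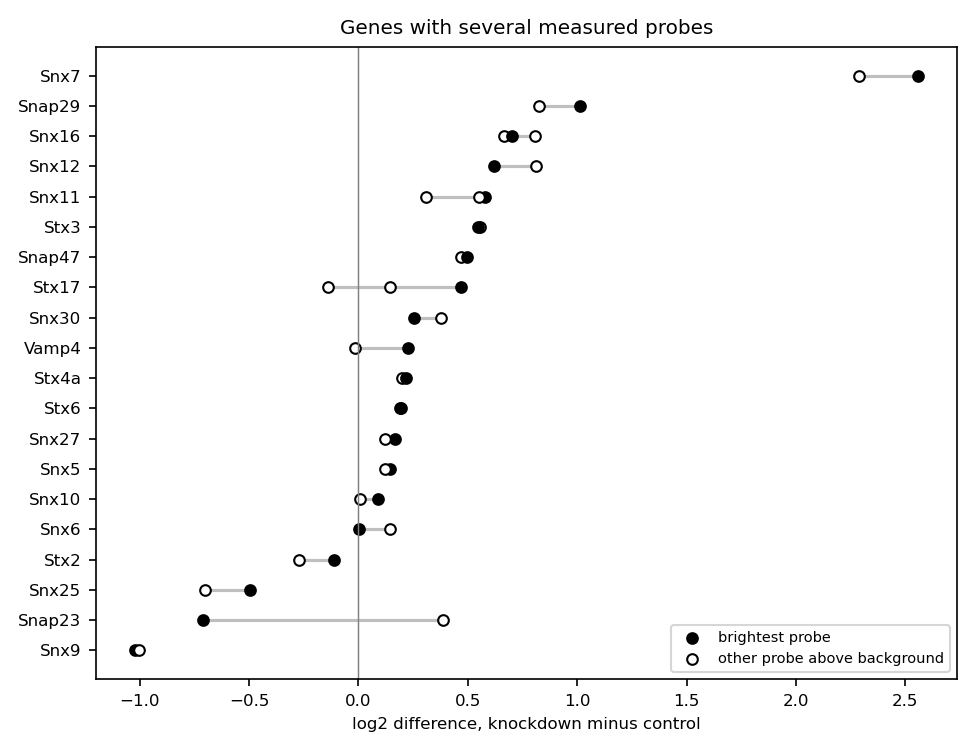
Log2 difference, knockdown minus control (horizontal axis), of every probe above background for the 20 genes with several such probes (vertical axis). Filled circles are the brightest probe, whose value stands for the gene, and open circles the others. Marks of a gene lie within 0.3 of each other except for Snap23, whose probes stand at -0.71 and 0.39, and Stx17, whose probes run from -0.14 to 0.47.

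Partners of the families were read from 5 lists. All their measured genes were above background on both arrays, except in the list of synaptotagmins and related calcium sensors. Over the 12565 genes above background on both arrays, 45.4% were above 0, and at 2-fold 6.31% were higher and 5.52% lower. At 1.5-fold, 12.8% of these were higher. The other SNAREs, those whose names fall outside the naming rule, had 7 of 9 measured genes above 0 (77.8%, against 45.7% of all genes). Their median was 0.37, with none at 2-fold in either direction (against 9% higher and 8.35% lower). Ykt6, a lipid-anchored SNARE of Golgi and autophagosome, read 1.37 in knockdown cells and 0.65 in control cells (0.72). Sec22b, of traffic between endoplasmic reticulum and Golgi, and the Golgi SNARE Gosr1 differed by 0.58 and 0.53.

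Factors that disassemble SNARE complexes or regulate their pairing had 9 of 17 measured genes above 0 (52.9%, against 45.7% of all genes). Their median was 0.13, and none of them was at 2-fold (against 9% higher and 8.35% lower). Unc13d, a priming factor of cytotoxic granules, was dim at -5.14 in knockdown cells and -4.15 in control cells (-0.99). Vps33a, the SM protein of the HOPS complex that templates lysosomal SNAREs, read 1.45 in knockdown cells and 0.70 in control cells (0.74). The syntaxin-binding protein gene Stxbp5 was dim at -3.56 in knockdown cells and -4.27 in control cells (0.70). Nsf and Napa, the ATPase and adaptor that take spent complexes apart, differed by -0.15 and -0.39, while the second Napa probe gave 0.16.

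Synaptotagmins and related calcium sensors were mostly below background, with 8 of 22 measured and a median of -0.03. Doc2g was not well above background in knockdown cells and read -3.45 in control cells, so that it was at least 5.70-fold lower in knockdown cells. The bound takes, for the knockdown array, the dimmest signal that passed the background flag or the probe's own, whichever is higher. Syt5 was likewise not well above background in knockdown cells, at least 1.28-fold lower. Sytl3 was dim at -4.53 in knockdown cells and -3.99 in control cells (-0.53).

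Retromer, its relative retriever, the COMMD proteins that join retriever in the Commander complex and the actin-nucleating WASH complex were all measured, 24 of 24, and 21 were above 0. This was 87.5%, against 45.7% of all genes. Their median was 0.36, with 1 gene higher at 2-fold (4.17%, against 9%), none lower and 9 higher at 1.5-fold (37.5%, against 15.4%). Over the genes above background on both arrays, as all 24 were, 6.31% were higher at 2-fold and 12.8% at 1.5-fold. Ccdc93, a scaffold of Commander, read 1.08 in knockdown cells and -0.12 in control cells, 2.28-fold higher, while its second probe gave 0.51 in log2. Commd9 read 0.53 in knockdown cells and -0.44 in control cells (0.97), and Commd6 differed by 0.83.

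Kinases and phosphatases that make and remove the lipids bound by PX domains had 13 of 16 genes above 0 (81.2%, against 45.7% of all genes) and a median of 0.23. At 2-fold, 2 were higher (12.5%, against 9%) and none was lower. The phosphatase Mtm1, which removes the endosomal phosphate that PX domains read, had a level of -1.30 in knockdown cells and -2.41 in control cells, 2.16-fold higher, and its second probe gave 1.07 in log2. Inpp4a, which makes the same lipid from a more phosphorylated one, was dim at -4.13 in knockdown cells and -5.21 in control cells, 2.12-fold higher. The second Inpp4a probe gave 0.91 in log2, short of 2-fold. Pik3r4, the regulatory subunit of the class III PI3-kinase, differed by 0.51.

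TFEB and its relatives bind the palindrome CACGTG, in many lysosomal genes preceded by a T. Both were searched on both strands. Promoter windows of RefSeq (GRCm38.p6), from 250 bases before to 50 after the start, were matched for 45 of the 60 genes. CACGTG occurred in windows of 5 of them, 11.1%, against 8.09% of all genes with a window and 11.4% of those measured here. The longer form TCACGTG, whose matches are all matches of the shorter one too, was found for 1 of 45 (2.22%), against 4.29% of all genes and 6.65% of those measured. The genes with CACGTG were Snx8 (1.24), Vamp4 (0.23), Stx6 (0.20), Snx5 (0.14) and Snx18 (-0.11). Of the 6 genes higher at 2-fold, only Snx8 was found with it. Genes without a matched window were not searched, and how many of these 6 had a window is not given here. Shown with the motif in capitals are the stretches of Snx8, the only one of them at 2-fold, and Stx6, the only one with the longer form. They lie at chr5:140389376-140389435 on the minus strand, the motif 100 bases before the start, and at chr1:155158591-155158650 on the plus strand, the motif 85 bases before it:
Snx8 promoter: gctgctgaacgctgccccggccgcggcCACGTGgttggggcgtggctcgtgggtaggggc
Stx6 promoter: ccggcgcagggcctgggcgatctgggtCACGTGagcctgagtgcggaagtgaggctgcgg
A match describes these letters only, and binding was not measured here.

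**Figure D5:**
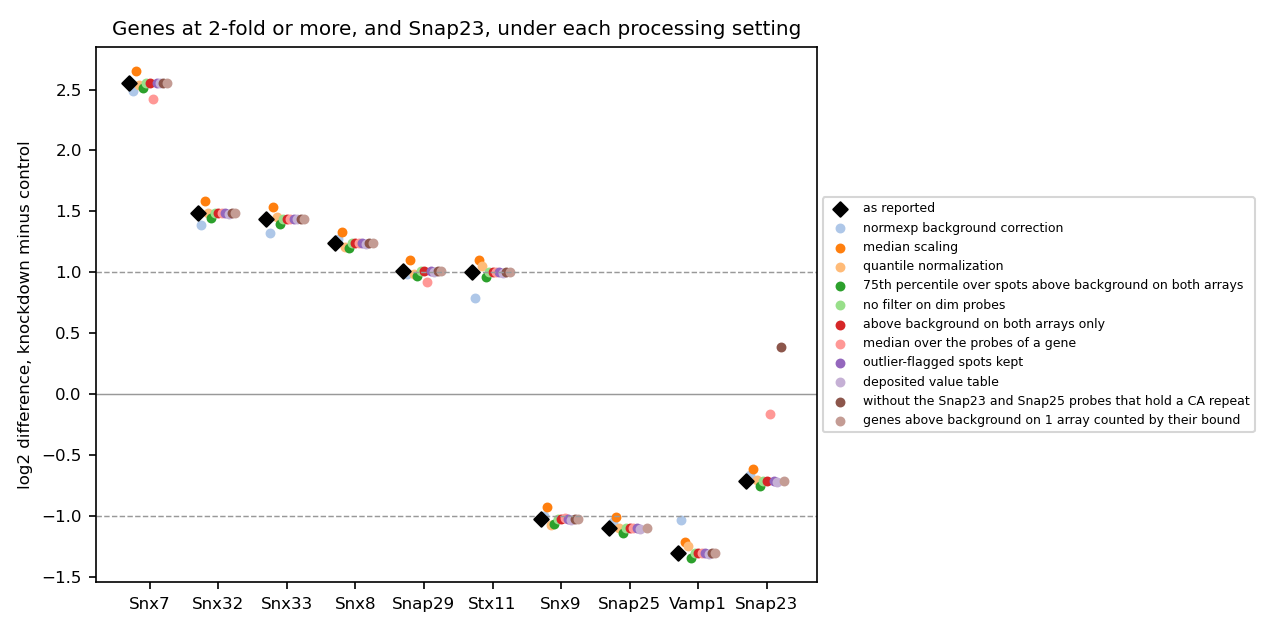
Log2 difference, knockdown minus control (vertical axis), of the 9 genes at 2-fold or more and of Snap23 (horizontal axis) under each processing setting (points, named in the legend, with the value as reported as a diamond). Dashed lines mark 2-fold. Snap29, Stx11 and Snx9 cross the dashed line under some settings, and Snap23 stands on both sides of 0.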

How the data were processed

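Each sample gave 200 ng of RNA for Cy3 labelling of oligo-dT-primed cRNA, per the labels' protocols. The deposited scanner files hold an intensity per spot, from Agilent Feature Extraction (version 10.7.3.1, per the submitters' processing notes). Spatial and multiplicative detrending had been applied to the processed intensity and surrogates put in for dim signals, per the file headers, which also give mm9 as the build and show 1 slide and 1 scan for the pair of arrays. The deposited value table holds the same intensity rounded (ratio 0.995 to 1.005, column medians 27.8 for the knockdown and 28 for the control).

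From these, levels were computed as log2 processed intensity less the 75th percentile of the array (1255 for the knockdown, 1172 for the control) over 43020 spots that are not controls. Outlier spots were left out (177 on the knockdown and 162 on the control array, none of a sorting nexin or SNARE probe), and repeated spots were averaged in log2. The scanner's flag had to place over 50% of a probe's spots well above background. A gene took its brightest probe and was measured where that probe was above background on at least 1 array. Names came from a RefSeq table (26055 probes by accession, 3195 by symbol, 930 by an older symbol, 9249 unnamed).

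Values were given in full for genes at 2-fold or more, in short for those between 1.5-fold and 2-fold and for the 3 brightest of each family, with up to 3 of each partner list, and the remaining genes by their difference, except 1 that is counted but not reported here by name; Nsf and Napa were added after their values were seen. The genes and lists were chosen with earlier results of these data known. Printed whole probes were chosen for a reading frame without a stop; their translation was not set against a protein table. Exon and UTR positions of probes were not analysed here. Alternatives were normexp (limma 3.58.1, R 4.3.3), other scalings, filters, probe rules, thresholds and the value table. The computations used Python 3.11.15 with pandas 2.3.3 and were tested on simulated data.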

Additional observations from a re-analysis of the deposited data

How the results depend on the processing

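Of the 626 differences of single genes recomputed under the alternatives, 534 moved by less than the spread between spots and 92 moved further. No gene at 2-fold or more changed direction. Many of the 534 could not move, so their count does not measure stability. All 57 genes were above background on both arrays and none had an outlier spot, so the filter, bound and outlier settings left every value unchanged. The median over probes could change only genes with several probes, and scaling to another percentile shifted all genes by the same amount. Among the 9 genes at 2-fold, Stx11, Snap29 and Snx9 were under it in 8 gene and setting pairs, given above, and no gene was added. The counts of sorting nexin and SNARE genes were 4 to 6 higher and 2 to 3 lower under the settings that kept the 2-fold limit, and 17 higher and 5 lower at 1.5-fold. Their median of 0.25 was 0.35 with scaling to the array median and 0.38 without the CA-repeat probes, an alternative chosen after seeing the data.

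Over all measured genes, the 1240 higher at 2-fold became 789 under normexp, 793 where both arrays had to be above background and 2115 at 1.5-fold. The 1150 lower became 613 under normexp, 693 with both arrays above background, 1760 without the filter on dim probes and 2223 at 1.5-fold. Scaling to the array median moved the median of all genes to 0.0417, of other SNAREs to 0.46, of SNARE regulators to 0.22, of calcium sensors to 0.0647, of retromer and its relatives to 0.45 and of the lipid enzymes to 0.33. Normexp gave 0.31 for other SNAREs and -0.0843 for calcium sensors, and quantile normalization 0.42 and 0.0222. Without the filter the SNARE regulators stood at -0.0090. The calcium sensors stood at 0.28 with both arrays above background and at -0.30 with outlier spots kept. The causes were not tested.

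No paired analysis was possible because each group has 1 sample, and leaving out a replicate was not possible for the same reason. One array per group limits the precision of every value.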

Other observations

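The levels of the repeat probes described above are given here as values. The 22 CA-repeat probes outside the SNAP25 family had levels of -4.76 to 2.24 in knockdown cells and -2.92 to 2.95 in control cells, and the 52 GT-repeat probes had levels of 2.11 to 6.86 in knockdown cells and 0.65 to 5.997 in control cells. The SD of the log2 differences was 0.233 over the CA-repeat probes and 0.128 over the GT-repeat probes. CA-repeat probes named for genes of other tissues, among them the opioid receptor gene Oprm1 (-0.99), the hormone gene Fgf23 (-0.99) and the tachykinin receptor gene Tacr2 (-1.09), were above background on both arrays with differences close to that of Snap25. These 3 were named after their values were seen, and the differences of all 22 probes ran from -1.84 to -0.71.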
